A study of Mus musculus with 12 samples.

Results

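Mouse tumour cells carrying a control guide were profiled by RNA-seq with and without 24 h of a treatment, IR in the labels, in 6 of the 12 libraries of the series. Which samples belong to which group follows from the labels and column names: the 3 treated libraries are control cells with IR, and the 3 untreated libraries control cells alone. Both groups carry the control guide sgNC in B16F10, a mouse melanoma line that the labels list as tumor cells. The labels do not spell IR out, and give no clone, dose or passage. The remaining 6 libraries are cells with a guide against Rnf19a (sgRnf19a), which the labels call deficient in this ubiquitin ligase, 3 without and 3 with IR for 24 h. They entered the fit of the spread and 1 comparison at the end. Untreated (control) libraries are named 1, 2 and 3 and treated libraries 1, 4 and 5, after the numbers in their columns. Whether the 3 libraries of a group were grown separately is not stated, and p-values therefore reflect the spread between these libraries alone, which may be technical. All 18183 genes with enough counts were tested.

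Ionising radiation, viral nucleic acid and several drugs are known to switch on the genes described here. Cells that sense DNA or RNA in the cytosol make interferon beta, which binds its receptor, activates STAT and IRF transcription factors and so induces antiviral effectors, chemokines and antigen presentation. Damaged DNA is known to stabilise p53, which induces inhibitors of the cell cycle, while stress kinases induce AP-1 factors such as Jun and Atf3. Which of these agents IR stands for was not assumed.

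The treated libraries held a different mix of RNA from the untreated ones. Total counts were 62681644 to 71265107 without IR and 34262483 to 42239465 with IR, and ribosomal RNA took 0.225 to 0.671% and 15.2 to 20.6% of them. Protein-coding transcripts longer than 6 kb exceeded those shorter than 1 kb by 1.47 to 2.15 in median log2 level without IR, while with IR the same difference was -0.96 to -0.77. Results are therefore given from 2 fits of edgeR's quasi-likelihood test, 1 on the counts as deposited and 1 with an offset per library for transcript length and GC content. A gene is called at a Benjamini-Hochberg adjusted p under 0.05 over all genes tested, and "by both fits" means called in the same direction by both. The correction narrowed that long-minus-short difference to 0.98 to 1.27 without IR and 0.30 to 0.39 with IR, so part of the length difference between the groups stayed in the corrected values. Of 10 melanocyte markers, Tyr, Tyrp1, Mlana, Slc45a2 and Oca2 had 0 counts in all 12 libraries, and the 10 summed to 11.8 to 16.2 CPM without IR and 2.09 to 3.58 CPM with IR. Pmel, a pigment-cell antigen, had 17, 29 and 21 counts without IR and 0 in each treated library, and the pigment enzyme gene Dct had 6 counts over all 12. These 7 defining markers were thus at 0 or near it, which goes against the label of a melanoma line, while Mitf, a transcription factor of melanocytes, had 763 to 971 counts without IR and 62 to 115 with IR. Epithelial markers summed to 781 to 958 CPM and 926 to 999.6 CPM, and fibroblast markers to 569 to 608 CPM and 342 to 396 CPM. Marker sums are scaled to total counts alone, without the TMM factors used for the CPM of single genes. Those factors were 1.153 to 1.188 without IR and 0.822 to 0.889 with IR. With them every sum would be smaller without IR and larger with IR. The epithelial sum rested on the keratin genes Krt8, Krt18 and Krt19, since Epcam had 32 to 74 counts in the 6 libraries, Cdh1 0 to 14 and Cldn4 0 to 4. Of 4 epithelial markers tested, Krt8, at 364, 307 and 381 CPM without IR and 708, 598 and 602 CPM with IR, was higher by both fits, and Krt18 had no call without the correction and was lower with it. Of 8 fibroblast markers tested, 1 was called higher and 1 lower.

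A large part of the transcriptome differed between control cells with and without IR. Without the correction 4028 genes were called higher, 22.2% of those tested, and 4679 lower, 25.7%. By both fits 2670 genes were higher, 14.7%, and 3284 lower, 18.1%. Among them 965 rose and 1989 fell at least 2-fold in both fits, and 190 rose and 826 fell at least 4-fold. The shares of 14.7% and 18.1% are those to set beside every count by both fits below. The 3 treated and the 3 untreated libraries did not overlap for 11298 genes, 62.1%. The median log2 fold change of all genes was -0.02, and -0.06 with the correction. Upper-quartile scaling moved that median to 0.19 and called 5122 genes higher and 3988 lower. On deposited FPKM values the median was -0.34, with 2115 genes higher and 6038 lower, so the share of rises among the calls was 46.3% on counts and 25.9% on FPKM. With ribosomal RNA genes left out of the library sizes, 4023 genes were higher and 4674 lower.

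Direction followed transcript length. Of 745 protein-coding genes with transcripts under 1 kb, 66.4% were called higher and 2.55% lower, and of 1955 genes over 6 kb, 3.38% were higher and 61.2% lower. By both fits the shares were 39.7% and 2.55% for the short genes and 3.38% and 37.7% for the long ones. Among the 5611 genes of 2 to 4 kb, rises and falls were about equal in number: 21.99% were higher and 24.0% lower, or 18.2% and 18.1% by both fits. Across 13983 protein-coding genes, which are not independent replicates, Spearman's rho of the log2 fold change was -0.46 with length and 0.44 with GC content. With the correction both were smaller, -0.08 and 0.12. The correction turned 155 calls to the opposite direction, of which 37 went from higher to lower and 118 from lower to higher. For families of short genes described below, from the IFIT and IFITM genes to the ribosomal proteins, the shares in the class of their own length are therefore given too. Whether the shift with length arose in the cells or in the libraries cannot be told apart here.

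**Figure D1:**
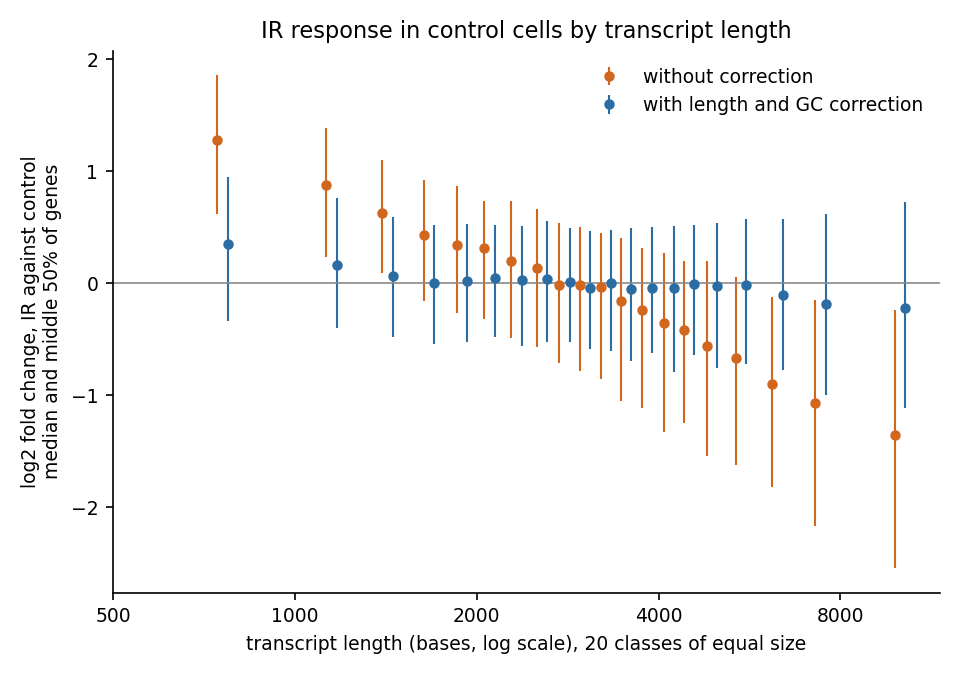
Log2 fold change with IR in control cells against transcript length for protein-coding genes, in 20 classes of equal size; points are class medians and bars the middle 50% of genes. Without the correction (orange) the medians fall steadily from the shortest class to the longest, crossing 0 among middle lengths, and with it (blue) they stay close to 0 except in the shortest classes and the longest.

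The interferon beta gene had the largest log2 fold change of the uncorrected fit among ranked genes that rose by both fits. Ranked genes had a mean of at least 5 CPM and no overlap between the 3 and 3 libraries. Predicted or unnamed genes, genes that share a name and rRNA-like genes were left out of the ranking. Lars2, left out as rRNA-like, took 0.0146 to 0.0335% of counts without IR and 1.57 to 2.29% with IR. Ifnb1 (ENSMUSG00000048806, mm10 chromosome 4, 88522025 to 88522774) encodes the secreted cytokine that starts the response, and was at 0.235, 0.142 and 0.205 CPM in untreated libraries 1, 2 and 3 and at 16.3, 23.2 and 23.8 CPM in treated libraries 1, 4 and 5. Levels of single genes are given in CPM, counts scaled to library size with TMM factors and not to transcript length. Ifnb1 was nearly silent in each untreated library and was 108-fold higher with IR (6.75 on the log2 scale, SE 0.36, edgeR adjusted p = 1.68e-06). With the correction its log2 fold change was 6.51. Of 19 interferon ligand genes, 8 had a count anywhere and 2 passed the filter on low counts. The other tested ligand, Ifna4, had 0 counts in the untreated libraries and 83 in the 3 treated ones. Against a floor of 12 counts, or 3 read pairs, over the untreated group this is at least 16.03-fold higher.

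Receptor genes moved in different directions. Of 6 tested, 2 rose and 2 fell by both fits. Ifnar1, which encodes a chain of the receptor for interferon beta, fell 1.71-fold, from 70.8, 76.2 and 66.9 CPM without IR to 34.8, 45.03 and 45.6 CPM with IR. Its partner Ifnar2 was at 22.7, 21.5 and 20.7 CPM without IR and 26.98, 26.9 and 26.5 CPM with IR, a 1.24-fold rise whose direction turned on FPKM values and whose call was lost with any of the 6 libraries left out (edgeR adjusted p from 0.0654 to 0.117). Ifngr2, a chain of the interferon gamma receptor, rose 2.43-fold to 56.2, 54.4 and 54.5 CPM. Ifnlr1, a chain of the interferon lambda receptor, was low and fell 3.02-fold, from 4.40, 2.38 and 2.47 CPM without IR to 0.710, 1.23 and 1.10 CPM with IR.

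Kinases and transcription factors of the pathway mostly rose. Of 13 tested, 7 rose and 2 fell by both fits. Irf7, which amplifies interferon transcription, was at 13.9, 12.1 and 13.9 CPM without IR and 52.1, 58.8 and 55.1 CPM with IR and rose 4.15-fold (2.05 on the log2 scale, SE 0.18, edgeR adjusted p = 2.95e-05; 1.65 with the correction). Irf9, a DNA-binding factor of the response, rose 3.90-fold, from 16.6, 20.02 and 12.3 CPM without IR to 64.3, 64.5 and 61.8 CPM with IR. The treated libraries lay close together for both genes and far from the untreated ones. Irf1, a factor induced early by both interferons and NF-kB, was at 50.97, 54.9 and 50.5 CPM without IR and 108, 145 and 130.0 CPM with IR. Inhibitors were mixed: of 8 tested, 2 rose and 1 fell by both fits, with a median log2 fold change of 0.22. Usp18, which removes ISG15 from proteins and blocks the receptor, was at 16.7, 17.1 and 17.6 CPM without IR and 103, 152 and 123 CPM with IR. Socs1, an inhibitor of JAK kinases, was at 2.41, 2.09 and 1.96 CPM without IR and 11.7, 9.23 and 9.18 CPM with IR. Pias1, an inhibitor of the pathway, fell 3.98-fold, or 1.59-fold with the correction.

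The sensors that feed this pathway did not rise as a group. Of 8 genes of the DNA-sensing arm, 1 rose and 2 fell by both fits, and of 9 of the RNA-sensing arm, 2 rose and 1 fell. Cgas, the sensor of cytosolic DNA, was at 1.59, 1.84 and 1.75 CPM without IR and 1.10, 0.574 and 0.322 CPM with IR, a fall that did not pass with the correction (edgeR adjusted p = 0.0738). Sting1, its adaptor, was at 224, 212 and 198 CPM without IR and 279, 298 and 266 CPM with IR, with a rise that passed only without the correction. Tbk1, the kinase that activates IRF3, fell 3.82-fold, from 59.3, 62.9 and 52.1 CPM without IR to 11.4, 18.5 and 15.7 CPM with IR. Zbp1, a sensor of Z-form nucleic acid, rose 5.13-fold, and the 3 treated libraries at 9.69, 11.8 and 10.1 CPM lay well above the untreated ones at 1.99, 2.02 and 2.13 CPM. Dhx58, which encodes the RIG-I-like receptor LGP2, rose 4.30-fold, from 9.48, 6.69 and 6.96 CPM without IR to 24.9, 38.5 and 36.1 CPM with IR. The RNA sensors Ddx58 (RIG-I) and Ifih1 (MDA5) did not pass in either fit. Eif2ak2, the RNA-activated kinase PKR, fell 4.47-fold, to 15.7, 19.5 and 17.7 CPM. Of 8 genes that remove or edit nucleic acids, 4 rose by both fits and 0 fell. They include Adar, an RNA-editing enzyme, at 65.2, 72.7 and 60 CPM without IR and 119, 119 and 123 CPM with IR, and Rnaseh2a and Rnaseh2c, subunits of an enzyme that cuts RNA in RNA-DNA hybrids.

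Most interferon effectors rose. Of 63 tested, 42 were called higher and 2 lower, against 22.2% and 25.7% of all genes, and 40 rose and 1 fell by both fits. Their median log2 fold change was 1.51, or 1.32 with the correction. Their median transcript was 2708 bases, close to the 2695 bases of all genes tested. The counts without the correction were 41 higher and 2 lower without treated library 1, and 42 and 2 without untreated library 3. Of 8 IFIT and IFITM genes, which block viral translation and entry, 6 rose by both fits. These are short genes with a median transcript of 1872 bases, and in the class of 1 to 2 kb 26.7% of genes rose by both fits. Ifit1 was at 5.29, 7.19 and 7.52 CPM without IR and 46.3, 94.5 and 62.4 CPM with IR, and Ifitm3 at 280.0, 220.2 and 289 CPM without IR and 690.3, 749.7 and 724 CPM with IR. All 3 treated libraries exceeded all 3 untreated ones for both, by 10.2-fold and 2.74-fold, though the rise of Ifitm3 came to 1.31-fold with the correction.

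Other effector families followed. Of 7 genes of the OAS family, named for enzymes that make a messenger that activates RNase L, 6 rose by both fits. Oasl1 was at 13.8, 12.6 and 14.2 CPM without IR and 115, 159.8 and 112 CPM with IR and rose 9.54-fold (3.25 on the log2 scale, SE 0.16, edgeR adjusted p = 1.41e-06; 2.82 with the correction). Among 4 genes of ISG15 conjugation 2 rose by both fits. Isg15 (ENSMUSG00000035692, mm10 chromosome 4, 156199455 to 156200796), which encodes the ubiquitin-like modifier itself, was at 10.5, 7.48 and 8.87 CPM without IR and 98.8, 136 and 114 CPM with IR. Isg15 is a short transcript, and its 13.02-fold rise came to 6.26-fold with the correction. Of 14 interferon-induced GTPases, which attack the membranes of pathogens, 10 rose by both fits. Tgtp1, one of them, was at 0.360, 0.985 and 0.770 CPM without IR and 7.14, 9.21 and 7.70 CPM with IR. Rsad2, which encodes the antiviral enzyme viperin, was at 24.8, 19.3 and 23.4 CPM without IR and 108, 229.5 and 146 CPM with IR, and Rtp4, an interferon-induced gene, at 4.55, 3.58 and 4.74 CPM without IR and 31.2, 37.8 and 36.2 CPM with IR. For Ifit1 and Rsad2 treated library 4 was the highest and treated library 1 the lowest.

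**Figure D2:**
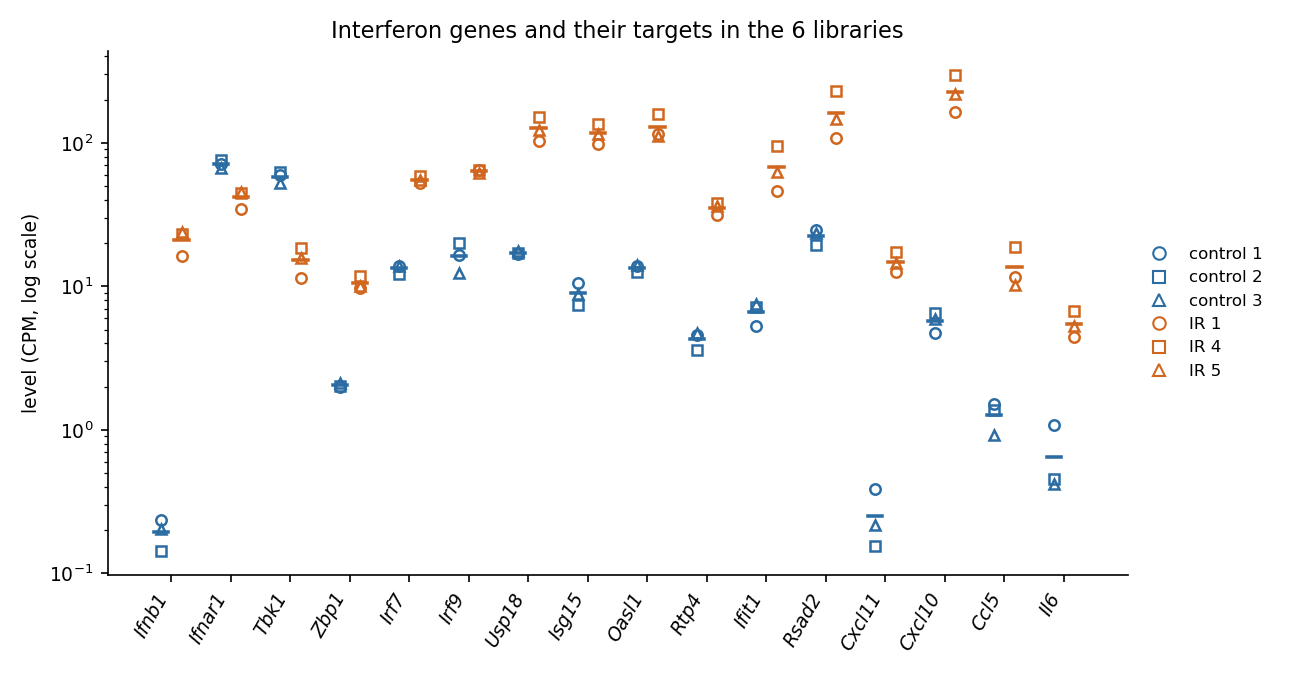
Level in CPM (log axis) of 16 interferon, effector and chemokine genes in the 3 untreated (blue) and 3 treated (orange) control libraries; symbols are libraries and short lines group means. Treated libraries lie above untreated ones for every gene shown except Ifnar1 and Tbk1, where they lie below.

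Promoters of 4 genes that the results turn on are printed to show the letters in front of them: 3 of the largest rises of the interferon response and, for contrast, Mki67, 1 of the largest falls. Each is the RefSeq window of GRCm38.p6 from 250 bases before to 50 after the annotated start, 5′ to 3′ on the strand of the gene. Capitals mark matches, on either strand, to letters of known motifs. These are ISRE (GAAANNGAAA, bound by IRF and STAT factors), kappaB (GGGANNNNCC, bound by NF-kB) and AP-1 (TGANTCA) in the first 3 windows, and CHR (TTTGAA) and CCAAT in the last.
Ifnb1, chr4:88522745-88523044, minus strand: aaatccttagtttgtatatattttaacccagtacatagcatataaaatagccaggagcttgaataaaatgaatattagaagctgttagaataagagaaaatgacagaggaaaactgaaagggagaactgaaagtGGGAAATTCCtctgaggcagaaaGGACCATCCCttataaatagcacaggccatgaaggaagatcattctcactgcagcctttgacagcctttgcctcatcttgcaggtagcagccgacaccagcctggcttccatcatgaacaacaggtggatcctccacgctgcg
Cxcl10, chr5:92348840-92349139, minus strand: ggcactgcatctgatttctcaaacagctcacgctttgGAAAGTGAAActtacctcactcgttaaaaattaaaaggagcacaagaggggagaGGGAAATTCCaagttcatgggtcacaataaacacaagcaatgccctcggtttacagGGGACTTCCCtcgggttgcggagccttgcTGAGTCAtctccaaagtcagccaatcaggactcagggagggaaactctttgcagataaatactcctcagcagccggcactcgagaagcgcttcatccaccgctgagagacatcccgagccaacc
Isg15, chr4:156200769-156201068, minus strand: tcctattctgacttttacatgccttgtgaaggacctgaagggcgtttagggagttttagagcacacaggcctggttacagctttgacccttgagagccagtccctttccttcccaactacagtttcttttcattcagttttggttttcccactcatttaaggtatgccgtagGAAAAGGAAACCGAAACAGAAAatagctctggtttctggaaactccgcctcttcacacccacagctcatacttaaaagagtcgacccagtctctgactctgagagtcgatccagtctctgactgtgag
Mki67, chr7:135716330-135716629, minus strand: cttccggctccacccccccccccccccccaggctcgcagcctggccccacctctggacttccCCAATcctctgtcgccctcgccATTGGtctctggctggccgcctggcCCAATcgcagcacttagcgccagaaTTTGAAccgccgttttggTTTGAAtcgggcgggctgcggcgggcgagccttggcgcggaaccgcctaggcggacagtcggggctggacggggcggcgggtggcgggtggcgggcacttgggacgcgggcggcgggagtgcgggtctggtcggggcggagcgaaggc
The Ifnb1 window has 2 kappaB matches, the first at position -116 from the annotated start, and the letters of the ISRE motif as spelled here do not occur in it. In the Cxcl10 window 1 ISRE match, 2 kappaB matches and 1 AP-1 match occur, none overlapping another. The Isg15 window holds 3 ISRE matches, each overlapping the next, the first at position -78. In the Mki67 window there are 2 CHR and 3 CCAAT matches.

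A promoter window was found for 11711 of the 18183 genes tested, using the first listed window of a gene. The ISRE letters occurred in 3.14% of them, in 4.86% of the 1976 windows of genes higher by both fits and in 2.32% of the 2286 windows of genes lower by both fits. Among genes called without the correction the shares were 3.97% and 2.58%. Of 50 interferon effectors with a window, 28 held the letters, 56.0%. The kappaB letters were at 23.7% for genes higher by both fits, 26.9% for genes lower by both fits and 25.9% in all. For AP-1 letters the shares were 6.22%, 4.20% and 5.57%. These shares are descriptions of letters, not of bound sites.

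Of 18 chemokine genes tested, 10 were called higher and 0 lower, and 9 rose by both fits. With the correction 9 were called higher and 1 lower. The chemokine transcripts had a median of 1206 bases, and in the class of 1 to 2 kb 45.7% of genes were called higher and 26.7% by both fits. Their median log2 fold change was 1.94, or 1.71 with the correction, and that of the class 0.57, or 0.05. Cxcl10 (ENSMUSG00000034855, mm10 chromosome 5, 92346638 to 92348882), a ligand of CXCR3 that attracts T cells, was at 4.76, 6.49 and 5.88 CPM without IR and 165, 299 and 218 CPM with IR and rose 39.8-fold (5.31 on the log2 scale, SE 0.25, edgeR adjusted p = 9.1e-07; 4.79 with the correction). Cxcl11, named for another ligand of that receptor, rose 58.5-fold, from 0.387, 0.155 and 0.217 CPM without IR to 12.6, 17.4 and 14.5 CPM with IR. The annotation classes Cxcl11 as a polymorphic pseudogene, and whether these cells make a working protein from it was not tested. Treated library 4 was the highest and library 1 the lowest for both Cxcl10 and Cxcl11. Cxcl9, the third ligand of CXCR3, was low in every library and rose 12.2-fold, from 0.111, 0.207 and 0.144 CPM without IR to 2.31, 2.38 and 1.07 CPM with IR. Ccl5, which attracts T cells and monocytes, was at 1.52, 1.37 and 0.927 CPM without IR and 11.5, 18.8 and 10.3 CPM with IR, a rise of 10.6-fold that came to 4.40-fold with the correction. Ccl2, which attracts monocytes, was at 127, 106 and 150.1 CPM without IR and 421, 485 and 468 CPM with IR.

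Cytokines were mixed, with 7 of 25 higher and 2 lower by both fits. Il6, an inflammatory cytokine, was at 1.08, 0.454 and 0.421 CPM without IR and 4.47, 6.74 and 5.29 CPM with IR and rose 8.47-fold, and Il15, which sustains NK and memory T cells, was at 1.43, 1.44 and 0.999 CPM without IR and 4.30, 5.02 and 4.64 CPM with IR. Lif, a cytokine of the IL-6 family, rose 3.11-fold to 47.6, 50.8 and 51.4 CPM. Gdf15, a stress-induced cytokine, rose 5.08-fold, from 7.55, 4.03 and 5.28 CPM without IR to 29.1, 27.7 and 28.9 CPM with IR. Il1r1, the receptor of interleukin-1, fell 3.54-fold, or 1.55-fold with the correction. Without TMM factors, the 10 immune-cell markers summed to 21.7 to 45.2 CPM without IR and 1.30 to 13.3 CPM with IR. Cd3e, Ms4a1 and Nkg7 were at 0 in all 6 libraries. Csf1r, a macrophage marker among them, was at 7.84, 10.4 and 11.4 CPM without IR and 2.48, 2.98 and 0.537 CPM with IR. Of 6 immune markers tested, 2 were called lower and 0 higher, and Csf1r was the 1 that fell by both fits. Lyz2, another macrophage marker, had 215, 613 and 950 counts without IR and 173, 242 and 7 with IR and passed in neither fit. The part of such cells in the cytokine and chemokine values was not tested. In bulk samples such as these, fewer cells of a type and less RNA per cell cannot be told apart.

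Antigen presentation by MHC class I rose at the level of its molecules. Of 7 class I molecules, 7 were called higher without the correction and 5 by both fits. Their median transcript was 1619 bases, in the class of 1 to 2 kb where 45.7% of genes were higher and 26.7% by both fits. H2-K1 was at 175, 131 and 140.0 CPM without IR and 358, 389.6 and 370.0 CPM with IR and rose 2.50-fold, or 1.60-fold with the correction. H2-D1 was at 276, 247 and 311 CPM without IR and 534, 460.4 and 489 CPM with IR, and its rise did not pass with the correction (edgeR adjusted p = 0.0523). B2m, the shared light chain, was at 508, 297 and 430.5 CPM without IR and 583, 663 and 776 CPM with IR, and its log2 fold change of 0.71 turned to -0.10 with an offset for length alone. These genes sit in families of near-identical copies, so counts may be split among them. Peptide loading did not move as a block, with 3 of 8 higher and 4 lower by both fits. Tap1, a peptide transporter, rose 2.99-fold, from 21.2, 17.8 and 15.3 CPM without IR to 46.6, 56.1 and 59.1 CPM with IR, while Pdia3, a chaperone of class I folding, fell 3.04-fold, from 1177, 1177 and 1016 CPM without IR to 324, 396 and 389.7 CPM with IR. Of 5 genes of the immunoproteasome, with a median transcript of 1311 bases in that same class, 4 rose by both fits, among them Psmb8 at 12.3, 11.7 and 13.02 CPM without IR and 28.2, 28.8 and 33.2 CPM with IR. Nlrc5, the transactivator of class I genes, was at 12.4, 12.8 and 9.62 CPM without IR and 11.3, 15.5 and 13.9 CPM with IR and passed only with the correction. Cd274, which encodes PD-L1, was at 2.96, 3.85 and 2.33 CPM without IR and 6.78, 8.14 and 8.08 CPM with IR, while Pvr, a ligand of TIGIT, was at 86.6, 77.9 and 74.8 CPM without IR and 69.8, 79.7 and 74.2 CPM with IR and passed in neither fit.

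Of 33 genes of the NF-kB pathway tested, 8 rose and 6 fell by both fits, against 14.7% and 18.1% of all genes, and the median log2 fold change was -0.03. Among the subunits Relb, Nfkb2 and Rela rose, Relb from 11.1, 8.42 and 8.22 CPM without IR to 23.01, 26.5 and 21.01 CPM with IR, whereas Nfkb1 was at 69.05, 64.3 and 82.9 CPM without IR and 63.05, 58.5 and 58.8 CPM with IR and passed in neither fit. Nfkbia, the feedback inhibitor of NF-kB, was at 61.3, 52.9 and 51.8 CPM without IR and 88.3, 98.6 and 82.8 CPM with IR, a rise that passed only without the correction. Tnfaip3, another feedback inhibitor, was at 6.17, 7.02 and 6.31 CPM without IR and 5.86, 10.1 and 5.10 CPM with IR and did not pass. Birc2, a ubiquitin ligase of the pathway, fell 7.95-fold, from 33.2, 30.1 and 26.3 CPM without IR to 2.20, 5.02 and 3.998 CPM with IR. Sod2, an NF-kB target that encodes a mitochondrial superoxide dismutase, was at 64.99, 67.5 and 80.1 CPM without IR and 140.0, 134 and 145 CPM with IR.

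AP-1 and ATF factors rose together. All 11 tested were called higher, 9 of them by both fits, with a median log2 fold change of 1.54, or 1.10 with the correction. Their median transcript was 1984 bases, in the class of 1 to 2 kb given above. Upper-quartile scaling, DESeq2 and counts divided by 4 also called 11 of 11 higher. FPKM values called 9 of 11, and leaving out any of the 6 libraries 10 of 11. Jun was at 23.5, 26.4 and 29.7 CPM without IR and 269, 316 and 276 CPM with IR and rose 10.8-fold (3.43 on the log2 scale, SE 0.18, edgeR adjusted p = 1.68e-06; 3.24 with the correction). Atf3, a stress-induced member, was at 6.92, 7.79 and 6.43 CPM without IR and 69.02, 99.5 and 69.7 CPM with IR. Fosb was at 4.11, 2.77 and 2.78 CPM without IR and 13.6, 15.1 and 12.4 CPM with IR and Fos at 3.78, 4.72 and 3.60 CPM without IR and 9.52, 12.6 and 11.3 CPM with IR. For all 11 the 3 treated libraries lay above the 3 untreated ones. The same held for 5462 of the 18183 genes tested and for 1492 of the 2756 protein-coding genes of 1 to 2 kb. Egr1, an immediate early zinc finger factor, rose 3.59-fold to 44.1, 55.8 and 46.9 CPM, and Dusp1, a phosphatase that switches off stress kinases, rose 4.88-fold, from 13.2, 12.9 and 12.7 CPM without IR to 58.9, 69.8 and 60.6 CPM with IR. Myc was at 9.96, 10.6 and 10.3 CPM without IR and 9.27, 8.78 and 10.7 CPM with IR, with no call without the correction.

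Of 47 targets of p53 tested, 15 rose and 8 fell by both fits, against 14.7% and 18.1% of all genes, so the share that fell was close to that of all genes. They had a median log2 fold change of 0.28 that turned to -0.20 on FPKM. Of 11 genes of cell cycle arrest, 4 rose and 0 fell by both fits. Cdkn1a, which encodes the CDK inhibitor p21, was at 181, 146 and 170.3 CPM without IR and 444, 371 and 442 CPM with IR and rose 2.53-fold, or 1.85-fold with the correction. Btg2, an antiproliferative gene, was at 19.6, 16.1 and 18.4 CPM without IR and 42.8, 52.2 and 54.3 CPM with IR. Among death genes Bax, which opens the mitochondrial membrane, was at 45.1, 38.3 and 68.7 CPM without IR and 158, 141 and 160.2 CPM with IR, Aen, a nuclease, rose 1.95-fold, and Apaf1, the core of the apoptosome, fell 3.63-fold. Pmaip1 (NOXA) was at 4.95, 4.46 and 4.36 CPM without IR and 4.22, 5.28 and 4.56 CPM with IR and passed only with the correction, and Fas was low at 1.05, 0.777 and 0.710 CPM without IR and 0.959, 1.23 and 1.34 CPM with IR and passed in neither fit. Feedback genes differed: Mdm2, the ligase that degrades p53, fell to 22.01, 32.4 and 28.7 CPM from 81.99, 86.4 and 67.7 CPM, and Ppm1d, a phosphatase that dampens p53 signalling, rose 1.43-fold. Trp53 itself was at 295, 328 and 348 CPM without IR and 430.4, 332 and 381 CPM with IR and did not pass.

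Of 67 genes of DNA replication, 23 were higher and 12 lower by both fits, against 14.7% and 18.1% of all genes, so the share that fell was close to that of all genes. On FPKM values 10 were higher and 32 lower, so the balance between the directions depended on the scaling. Pcna, the sliding clamp, was at 546, 396 and 735 CPM without IR and 1620.0, 1545 and 1840.0 CPM with IR and rose 2.98-fold. Mcm5, a subunit of the replicative helicase, was at 204, 228 and 247 CPM without IR and 449, 371 and 415 CPM with IR, whereas Mcm4, another subunit, fell 2.89-fold, from 285, 312 and 292 CPM without IR to 86.7, 108 and 113 CPM with IR. Cdk4, a kinase of G1, was at 373, 346 and 419.6 CPM without IR and 982, 889.7 and 922 CPM with IR. Tyms, which makes thymidylate, rose 2.09-fold, and Rrm2, a subunit of ribonucleotide reductase, fell 1.84-fold. Pole, the catalytic subunit of a replicative polymerase with a transcript of 7163 bases, fell 3.32-fold, or 2.08-fold with the correction. Ccnd1 was at 190.4, 212 and 248 CPM without IR and 229, 233 and 249 CPM with IR and passed in neither fit.

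Most mitotic genes fell, among them nearly all kinesins and genes of chromosome and spindle structure. Of 75 tested, 8 rose and 42 fell by both fits, against 14.7% and 18.1% of all genes, and the median log2 fold change was -0.80 in each fit. The median transcript was 3227 bases, and in the class of 2 to 4 kb 18.2% of genes rose and 18.1% fell by both fits. Among genes of that length fitted alone, 1 of 33 mitotic genes was higher and 23 were lower, with a median of -0.80. Of 12 mitotic kinesins, motors that build and move the spindle, 10 fell and 0 rose by both fits. Their median log2 fold change was -2.67, or -1.84 with the correction. For the 7 kinesins of 2 to 4 kb fitted alone it was -0.46, with 5 lower. Of 22 genes of chromosome and spindle structure, 18 fell and 1 rose. Among the 10 of 2 to 4 kb fitted alone, 9 were lower and 1 higher. Mki67 (ENSMUSG00000031004, mm10 chromosome 7, 135689784 to 135716361), which coats mitotic chromosomes, was at 659, 693 and 215 CPM without IR and 24.1, 22.1 and 20.1 CPM with IR and fell 23.6-fold (-4.56 on the log2 scale, SE 0.61, edgeR adjusted p = 0.000148; -3.29 with the correction). Top2a, which untangles DNA, was at 1398, 1298 and 715 CPM without IR and 79.1, 78.2 and 73.2 CPM with IR. Kif20b, a kinesin of cell division, fell 24.5-fold, or 8.02-fold with the correction, from 136, 137 and 44.7 CPM without IR to 3.90, 4.70 and 4.32 CPM with IR. Mki67 and Kif20b have transcripts of 10061 and 5564 bases. Of genes of 4 to 6 kb 28.6% fell by both fits, and of genes over 6 kb 37.7%. Kif11, which separates spindle poles, fell 16.9-fold, to 10.97, 11.04 and 11.7 CPM. Untreated library 3 lay well below libraries 1 and 2 for Mki67, Kif20b, Top2a and Cenpf, though still above every treated library. Without that library 10 mitotic genes were called higher and 43 lower, against 11 and 45 with it.

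Not all mitotic regulators fell. Of 19 kinases, cyclins and transcription factors, 3 rose and 6 fell by both fits. Cdk1, the kinase that drives mitosis, was at 214, 155 and 286 CPM without IR and 569, 516 and 617 CPM with IR and rose 2.60-fold. Ccnb1, its cyclin, was at 272, 259 and 281 CPM without IR and 180.3, 233 and 212 CPM with IR, a fall that did not pass with the correction. Plk1 was at 138, 134 and 159.6 CPM without IR and 168, 135 and 148 CPM with IR, with no call without the correction. Pttg1, the securin that holds sister chromatids together, was at 19.1, 14.6 and 19.7 CPM without IR and 47.7, 49.4 and 56.5 CPM with IR and rose 2.88-fold. Cks1b, a small partner of CDKs, rose 2.83-fold, from 143, 137 and 185 CPM without IR to 468, 413 and 435 CPM with IR. Bub1b, a kinase of the spindle checkpoint, fell 1.75-fold, from 352, 324 and 316 CPM without IR to 171, 204 and 193 CPM with IR, and Ttk, another, fell 11.98-fold, to 3.30, 4.10 and 5.12 CPM. The CHR letters occurred in 40 of 61 mitotic promoters, 65.6%, against 12.4% of all windows, and 43 held CCAAT, 70.5%, against 38.8%. Over genes lower by both fits the 2 shares were 13.5% and 41.0%, and over genes higher by both fits 12.5% and 41.1%.

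**Figure D3:**
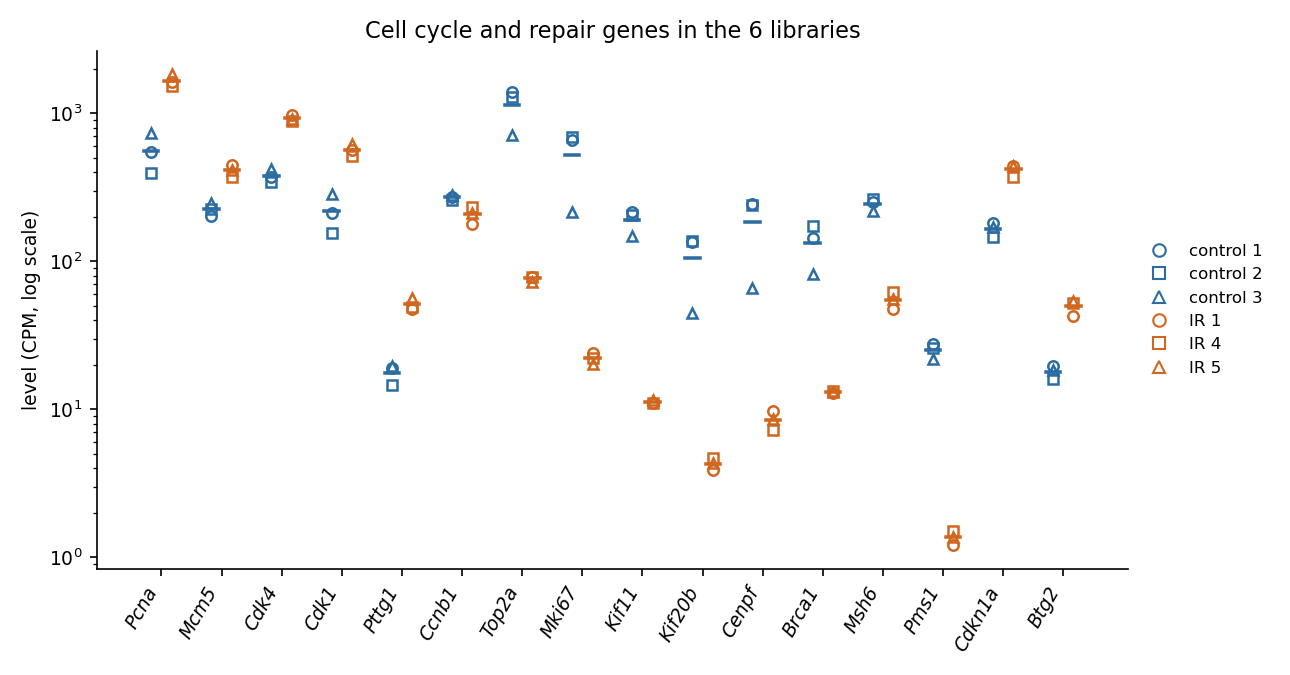
Level in CPM (log axis) of 16 cell cycle, repair and p53 target genes in the 3 untreated (blue) and 3 treated (orange) control libraries; symbols are libraries and short lines group means. Pcna, Mcm5, Cdk4, Cdk1, Pttg1, Cdkn1a and Btg2 are higher in all treated libraries, and Ccnb1 and the other genes lower; untreated library 3 (blue triangle) is the lowest untreated library for Mki67, Kif20b and Cenpf.

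More DNA repair genes fell than rose. Of 99 tested, 14 rose and 42 fell by both fits, and the median log2 fold change was -0.64, or -0.41 with the correction. The median transcript was 3296 bases, and in the class of 2 to 4 kb 18.1% of genes fell by both fits. All 7 mismatch repair genes were called lower, 6 of them by both fits. Msh6, which binds mismatches, was at 254, 266 and 218 CPM without IR and 47.97, 61.7 and 55.95 CPM with IR. Pms1, another mismatch repair gene, fell 18.3-fold, from 27.6, 25.8 and 21.8 CPM without IR to 1.21, 1.52 and 1.37 CPM with IR. Of 21 genes of homologous recombination, 1 rose and 10 fell by both fits. Brca1 was at 144, 174 and 82.4 CPM without IR and 12.9, 13.3 and 13.1 CPM with IR and fell 10.2-fold, or 4.86-fold with the correction. Brca2, with a transcript of 10724 bases, was at 31.3, 44.7 and 15.4 CPM without IR and 3.55, 3.96 and 3.005 CPM with IR, and its 8.70-fold fall came to 2.64-fold with the correction.

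By both fits damage signalling and the other repair pathways were similar in direction, except for excision repair. The signalling genes had a median transcript of 4640 bases, and in the class of 4 to 6 kb 28.6% of genes fell by both fits. Of 19 signalling genes, 3 rose and 10 fell by both fits, among them Atm, the kinase that answers double-strand breaks, at 55.4, 64.8 and 26.8 CPM without IR and 5.08, 3.73 and 4.64 CPM with IR, and Trp53bp1, which binds broken ends, at 153, 141 and 121 CPM without IR and 30.1, 34.2 and 36.5 CPM with IR. Of 14 genes of the Fanconi pathway, which repairs crosslinks, 2 rose and 7 fell by both fits, with Fancd2 at 49.3, 52.3 and 34.6 CPM without IR and 6.39, 10.6 and 9.20 CPM with IR. Of 11 end-joining genes, 1 rose and 4 fell. Prkdc, its kinase, fell 10.9-fold, or 3.40-fold with the correction for a transcript of 12647 bases, while Xrcc5 (Ku80) passed in neither fit. In nucleotide excision repair 3 of 12 rose and 2 fell by both fits, and with the correction 3 were higher and 5 lower. In base excision repair 4 of 15 rose and 3 fell by both fits, and with the correction 5 were higher and 6 lower. Apex1, an endonuclease that cuts abasic sites, was at 96.4, 81.6 and 142 CPM without IR and 519.6, 492 and 526 CPM with IR and rose 4.80-fold. Parp1 was at 157, 154 and 198 CPM without IR and 145, 132 and 139.8 CPM with IR and passed in neither fit.

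Sterol synthesis rose. Of 20 enzymes tested, 13 rose and 1 fell by both fits, against 14.7% and 18.1% of all genes. Their median log2 fold change was 1.06, or 0.76 with the correction. Cyp51, a demethylase of lanosterol, was at 75.05, 70.2 and 63.6 CPM without IR and 148, 200.3 and 168 CPM with IR (1.30 on the log2 scale, SE 0.14, edgeR adjusted p = 5.96e-05; 1.88 with the correction). Msmo1, which acts later in the pathway, was at 133, 87.7 and 114 CPM without IR and 282, 338 and 352 CPM with IR. Fdft1, squalene synthase, was at 117, 92.6 and 91.1 CPM without IR and 267, 290.2 and 282 CPM with IR. Sqle passed only with the correction and Hmgcs1 in neither fit. Insig1, which holds back the sterol sensor, was at 78.1, 70.1 and 71.5 CPM without IR and 135, 178 and 169 CPM with IR. Of 9 fatty acid enzymes, 2 rose and 2 fell by both fits. Fasn, fatty acid synthase, rose 1.59-fold, a call lost without control library 1 or 2 or treated library 1 or 5 (edgeR adjusted p = 0.0797, 0.112, 0.112 and 0.0715), while Acaca, which makes its substrate, fell 4.04-fold, from 115, 109 and 116 CPM without IR to 24.6, 30.2 and 29.7 CPM with IR.

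The integrated stress response and the chaperones of the endoplasmic reticulum moved apart. Of 18 genes of the integrated stress response, 8 rose and 3 fell by both fits, against 14.7% and 18.1% of all genes. Their median log2 fold change was 0.88, or 0.30 with the correction, and on FPKM values 7 were higher and 5 lower. Atf4, its transcription factor, was at 266, 245 and 301 CPM without IR and 828, 838 and 788 CPM with IR. Ppp1r15a, which ends the response, was at 22.5, 23.1 and 21.3 CPM without IR and 81.2, 86.96 and 86.1 CPM with IR and rose 3.80-fold (1.93 on the log2 scale, SE 0.15, edgeR adjusted p = 1.4e-05; 1.66 with the correction). Ddit3 (CHOP) was at 11.6, 12.3 and 10.7 CPM without IR and 25.4, 34.7 and 26.7 CPM with IR, a rise that did not pass with the correction. Of 16 genes of the unfolded protein response, 0 rose and 7 fell by both fits, against the same shares of all genes. Their median log2 fold change was -0.57, or -0.30 with the correction, and on FPKM values 0 were higher and 12 lower. Upper-quartile scaling called 4 of the 16 higher and counts divided by 4 called 3 higher, with 8 lower in each. Hsp90b1, an abundant chaperone of the endoplasmic reticulum, was at 1641, 1598 and 1012 CPM without IR and 128, 161 and 124 CPM with IR and fell 10.3-fold. Hspa5 (BiP) was at 1184, 1194 and 1213 CPM without IR and 433, 651 and 516 CPM with IR, a fall of 2.24-fold. Heat shock genes were mixed, with 3 of 12 higher and 5 lower by both fits, beside 14.7% and 18.1% of all genes. Of 11 NRF2 targets, 4 rose and 3 fell, with Nqo1, a quinone reductase, at 70.96, 64.5 and 79.6 CPM without IR and 205, 214 and 205 CPM with IR.

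Among 21 effectors of cell death, 4 rose and 5 fell by both fits, near the 14.7% and 18.1% of all genes tested. Bid, which links death receptors to mitochondria, rose 1.87-fold, from 25.4, 23.7 and 21.96 CPM without IR to 35.6, 47.8 and 49.3 CPM with IR, and Casp8, the initiator caspase, fell 3.22-fold, from 64.2, 57.1 and 39.1 CPM without IR to 15.6, 17.9 and 16.2 CPM with IR. Xiap, an inhibitor of caspases with a transcript of 6834 bases, fell 9.30-fold, or 2.49-fold with the correction. Mlkl, which executes necroptosis, was at 92.6, 102 and 89.1 CPM without IR and 46.2, 59.97 and 55.9 CPM with IR. In the ubiquitin system, 3 of 13 RING-between-RING ligases rose and 5 fell by both fits, against the same shares of all genes. Their median transcript was 4474 bases, and in the class of 4 to 6 kb 8.85% of genes rose and 28.6% fell by both fits. Rnf19a, the gene targeted in the other cells of the series, was at 33.5, 29.4 and 21.5 CPM without IR and 4.37, 8.06 and 5.39 CPM with IR and fell 4.72-fold, or 2.77-fold with the correction. Of 6 RSK and MSK kinases, with a median transcript of 4788 bases in that same class, 1 rose and 2 fell by both fits. They are too few genes to set apart from the shares of all genes or of the class. Rps6ka1, which encodes RSK1, was at 42.9, 38.5 and 51.8 CPM without IR and 47.5, 33.8 and 43.3 CPM with IR and passed in neither fit, and Rps6ka3 (RSK2) was at 104, 107 and 84.4 CPM without IR and 10.9, 14.2 and 11.4 CPM with IR.

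Short housekeeping transcripts rose in bulk. Of 82 ribosomal protein genes, 76 were called higher, 63 of them by both fits, with a median log2 fold change of 1.83 that came to 0.92 with the correction. Their median transcript was 910 bases, and in the class under 1 kb 66.4% of all genes were higher and 39.7% by both fits. Rpl36a was at 78.5, 61.2 and 101 CPM without IR and 361, 346 and 325 CPM with IR. Of 73 nuclear genes of the respiratory chain, 68 were higher, 48 by both fits, and of 31 proteasome subunits, 21 and 13. The median transcript of the proteasome subunits was 1581 bases, and in the class of 1 to 2 kb 45.7% of genes were higher and 26.7% by both fits. Replication-dependent histone genes, whose mRNAs end without a poly(A) tail, were called higher in 53 of 59 cases and by both fits in 42, with a median log2 fold change of 3.28, or 2.02 with the correction. H2bc4 was at 4.55, 3.68 and 5.08 CPM without IR and 34.4, 33.7 and 36.1 CPM with IR. No ribosomal protein or histone gene was called lower without the correction, and 3 ribosomal protein genes were called lower with it.

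Zinc finger genes named Zfp, most of which encode transcription factors, were lower in large part. Of 342 tested, 19 rose and 184 fell by both fits, and the median log2 fold change was -1.68, or -0.90 with the correction. Their median transcript was 3485 bases, and 18.1% of protein-coding genes of 2 to 4 kb fell by both fits. Zfp820 was at 29.4, 27.9 and 13.9 CPM without IR and 0.852, 0.688 and 0.885 CPM with IR and fell 29.3-fold, or 11.2-fold with the correction. Zfp296 went the other way, from 4.55, 4.59 and 3.35 CPM without IR to 21.6, 19.3 and 19.2 CPM with IR. Among genes of that length fitted alone, 112 Zfp genes were lower and 12 higher. Of the 37 mitochondrially encoded genes, 5 were higher and 6 lower by both fits. An offset for length alone called 0 higher and 26 lower, with a median of -0.88, and FPKM values 2 higher and 14 lower, so their direction depended on the scaling.

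**Figure D4:**
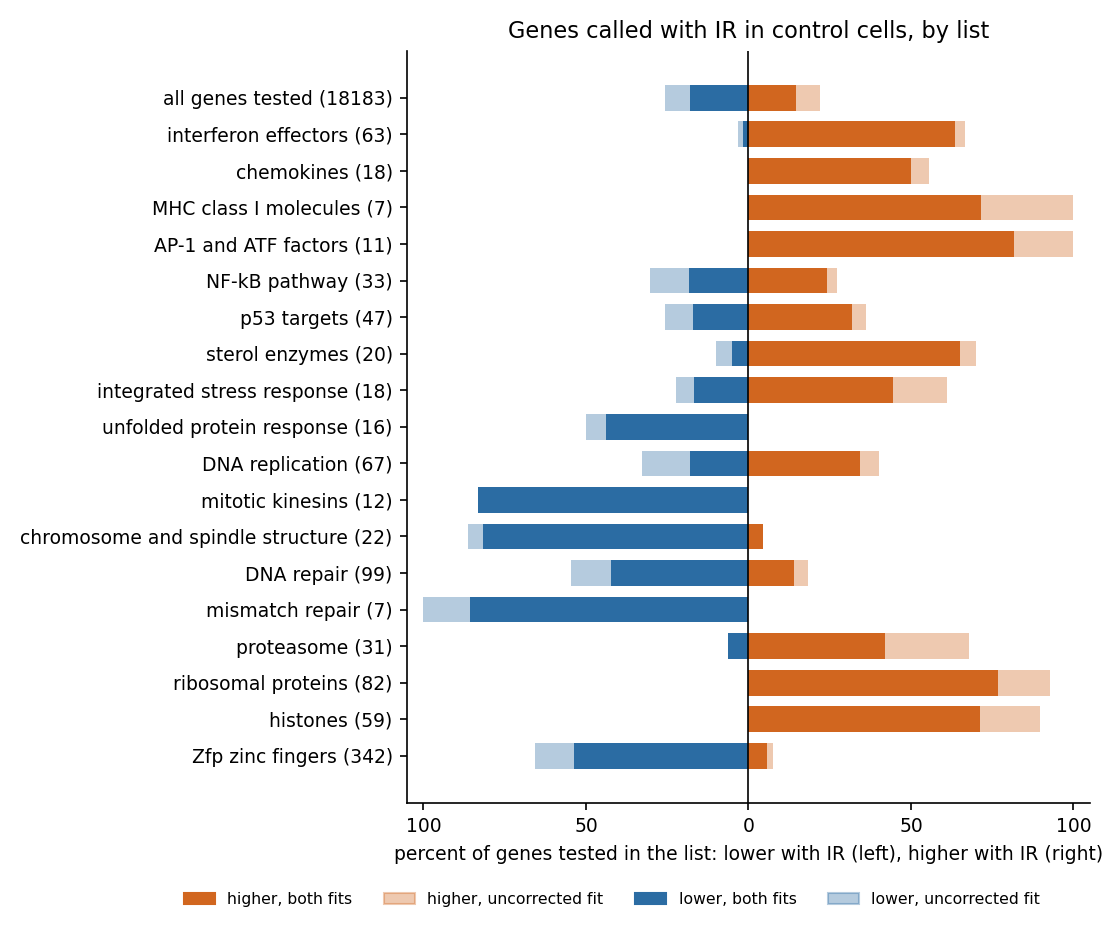
Percent of the genes tested in each list that were called higher (orange, right) or lower (blue, left) with IR in control cells; dark bars are calls by both fits, pale bars calls of the uncorrected fit, and numbers in brackets are genes tested. Interferon effectors, chemokines and AP-1 factors lie to the right of all genes tested, and mitotic kinesins, mismatch repair and Zfp genes to the left.

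The 8 largest rises by both fits among genes of at least 5 CPM, with separate libraries, were Ifnb1, Cxcl11, Cxcl10, H1f3, Rpph1, Isg15, Atf3 and Jun. Predicted or unnamed genes, genes that share a name and rRNA-like genes, Lars2 among them, were left out of both rankings here. H1f3, a linker histone, was at 0.221, 0.415 and 0.842 CPM without IR and 19.1, 18.1 and 17.1 CPM with IR. The transcript length in the annotation for H1f3 is 7425 bases, against a median of 539 bases for the histone genes, so its corrected value is uncertain. Rpph1, the RNA of RNase P, was at 0.152, 0.311 and 0.554 CPM without IR and 10.8, 11.7 and 8.88 CPM with IR. The 8 largest falls, ranked like the rises on the uncorrected fit, were Zfp820, Kif20b, Mki67, Zfp442, Dock11, Cenpf, Cenpe and Rif1. All but Zfp820 and Zfp442 have transcripts of 5564 to 11130 bases. In the class over 6 kb 61.2% of genes were called lower, and 44.8% in that of 4 to 6 kb. The fall of Rif1 was 20.8-fold, or 5.62-fold with the correction. Dock11, an activator of the GTPase CDC42, was at 66.8, 61.3 and 33.3 CPM without IR and 2.27, 3.15 and 2.04 CPM with IR, and Rif1, which controls replication timing and the choice of repair pathway, at 191, 227 and 96.2 CPM without IR and 7.63, 9.06 and 7.996 CPM with IR. For all 8 falls untreated library 3 was the lowest untreated library and lay above every treated one.

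The response of control cells differed from that of sgRnf19a cells in few genes by edgeR's test of the difference. The targeted gene Rnf19a was at 27.4, 25.6 and 22.6 CPM without IR and 18.1, 11.6 and 37.7 CPM with IR in sgRnf19a cells, and an RNA level does not show whether a guide cut its gene. Of 18183 genes, 124 were called, 0.682%, of which 99 rose less or fell more in control cells and 25 the reverse. Among the 63 interferon effectors 12 were called, all less induced in control cells. Ifit1 was at 5.29, 7.19 and 7.52 CPM without IR and 46.3, 94.5 and 62.4 CPM with IR in control cells and at 41.1, 34.95 and 38.8 CPM without IR and 1763, 1402 and 2620.0 CPM with IR in sgRnf19a cells, a response lower by 2.31 on the log2 scale (edgeR adjusted p = 0.0283). Its level was higher in sgRnf19a cells both without and with IR. Il15 was at 0.387, 0.416 and 0.482 CPM without IR and 12.8, 12.3 and 11.8 CPM with IR in sgRnf19a cells, a response lower in control cells by 2.98 (edgeR adjusted p = 0.00492). Jun rose more in control cells than in sgRnf19a cells, where it was at 20.3, 18.8 and 20.6 CPM without IR and 84.6, 90.7 and 57.6 CPM with IR, a difference of 1.47 (edgeR adjusted p = 0.0255). For Ifnb1 the difference did not pass (log2 difference 0.13, SE 0.44, edgeR adjusted p = 0.906). The count was 435 with the correction and 1695 by DESeq2, and it depended on each library. Leaving out control library 1, 2 or 3 gave 38, 33 or 26 calls, and leaving out treated control library 1, 4 or 5 gave 23, 81 or 5. Without sgRnf19a library 1, 2 or 3 it was 72, 10 or 11, and without treated sgRnf19a library 1, 3 or 4 it was 34, 2624 or 500. Of the named genes only Il15 was called in every one of these fits.

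**Figure D5:**
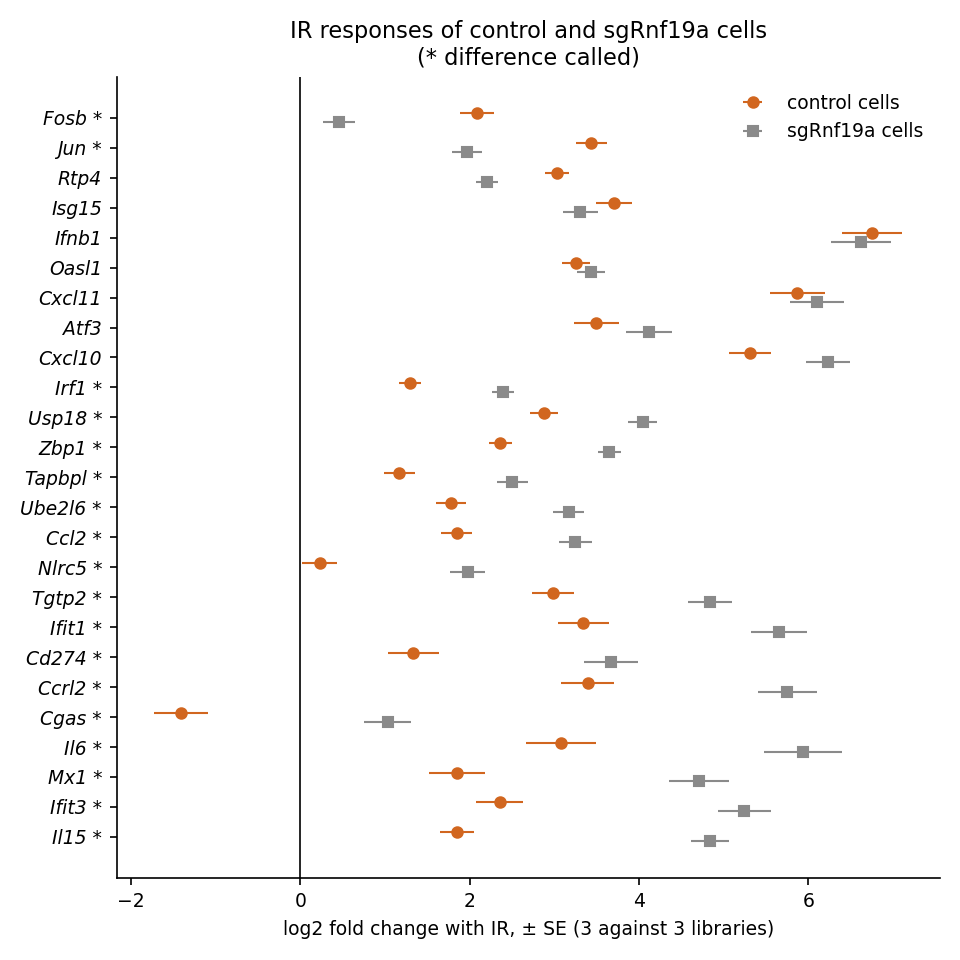
Log2 fold change with IR, with its SE, in control cells (orange) and sgRnf19a cells (grey) for 25 genes. They come from the interferon, nucleic acid sensing, chemokine and cytokine, MHC class I, immune ligand and AP-1 lists. Stars mark genes whose difference was called. Il15, Ifit3 and Mx1 lie farthest to the left of their grey points, while Jun and Fosb lie to the right of theirs and the points of Ifnb1 lie close together.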

How the data were processed

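RNA-seq counts of 12 B16F10 libraries, 3 in each of 4 groups, and FPKM values were deposited. The submitters' processing notes name Bowtie2, HTSeq, DESeq2, mm10 and GRCm39; the sources used here give neither their roles and versions nor the strand setting of the counting, so antisense and overlapping genes are uncertain. The deposited values are whole, but 1 read pair is worth about 4 counts, so they were treated as the authors' estimated counts, and the deposited FPKM values are the authors' levels per length and depth. Libraries were depleted of ribosomal RNA and sequenced as read pairs, per the labels' protocols. The IR columns are numbered 1, 4 and 5 and carry a D, where the labels number 1 to 3, so columns were matched to groups, the D columns to the only groups left, and 12 further per-sample columns were not used.

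Counts were tested in R 4.3.3 with edgeR 4.0.16 (filterByExpr with a count minimum of 10 and a total of 15, TMM, 4 group means, robust quasi-likelihood fit, 2-sided), after a check on simulated data. SE is the absolute log2 fold change over the square root of F. The second fit added offsets from per-library splines (5 degrees of freedom each) of length and of GC content, fitted over 13950 protein-coding genes. Alternatives were DESeq2 1.42.0, limma 3.58.1 on log2(FPKM + 1) and log2(FPKM + 0.1), other scalings and filters, and each library left out. Named genes are the 8 largest changes each way, up to 3 members with the smallest p in each role of a list, and a panel. Genes in the paragraph on differences between responses follow the same rule. Members and lists were chosen with earlier results of these data known. The values of some listed genes are not reported here.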

Additional observations from a re-analysis of the deposited data

Results flagged for a closer look

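The 18 genes named here differed between the IR responses of control cells and sgRnf19a cells by edgeR's test of the difference itself, with adjusted p from 0.00492 to 0.047. In 16 the log2 response was lower in control cells. The differences in log2 response were -2.98 for Il15, -2.89 for Ifit3, -2.86 for Mx1, which encodes an antiviral GTPase, and -2.86 for Il6. They were -2.44 for Cgas, -2.36 for Ccrl2, a chemokine-binding receptor, -2.34 for Cd274 and -2.31 for Ifit1. For Tgtp2, an interferon-induced GTPase, the difference was -1.85, for Nlrc5 -1.75, for Ccl2 -1.40 and for Ube2l6, the conjugating enzyme of ISG15, -1.38. It was -1.33 for Tapbpl, a peptide editor of class I molecules, -1.29 for Zbp1, -1.16 for Usp18 and -1.10 for Irf1. Jun and Fosb had the higher response in control cells, with differences of 1.47 and 1.63. Only Il15 passed with each of the 12 libraries left out in turn, and without treated sgRnf19a library 3 the number of genes called rose from 124 to 2624, so the call of every other gene here depended on the libraries in the fit.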

How the results depend on the processing

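No paired analysis was possible because the columns with IR carry the numbers 1, 4 and 5, which cannot be matched to the 1, 2 and 3 of the labels or of the untreated columns. With each of the 6 libraries left out, 3290 to 3747 genes were called higher, 4078 to 4406 lower and 4895 to 5677 by both fits, against 4028, 4679 and 5954. The number called higher moved to 2115 on log2(FPKM + 1), 2051 on log2(FPKM + 0.1), 1927 on FPKM with no filter, 2206 at an absolute log2 fold change of at least 1 and 1339 among transcripts of 2 to 4 kb alone, where 1320 were lower. At that fold threshold 2954 genes passed by both fits. The share of rises among the calls was 23.1% on FPKM with no filter and 25.6% on log2(FPKM + 0.1), with medians over all genes of -0.14 and -0.44, and 56.2% under upper-quartile scaling. The difference between responses was called for 1695 genes by DESeq2 and 435 with the length and GC correction, against 124, and for 5 to 2624 with a library left out. The cause of these shifts was not tested, apart from the smaller number of genes in the length class.

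Of 148 named genes, 41 changed their call or direction under at least 1 alternative, and 0 did with ribosomal RNA genes left out. Directions turned for 6. With the length and GC correction the log2 fold change was 0.11 for Ccnb1, -0.37 for Plk1 and -0.57 for Krt18, and with length alone it was -0.10 for B2m and -0.32 for Krt18, which upper-quartile scaling called higher. On log2(FPKM + 1), with and without the filter, it was -0.16 for Ifnar2 and -0.0788 for Sting1, and on log2(FPKM + 0.1) -0.18 and -0.0796. Among the named genes, leaving out a library also ended calls of Ccnb1 and Pmel (5 of 6 libraries for each), and leaving out treated library 4 added Ddx58, Hmgcs1 and Xrcc5 as lower. On log2(FPKM + 1), 12 calls of named genes were lost, all of them rises, among them Cd274, Mx1, Adar, Fasn, B2m, H2-D1, Nfkb2, Rela and Ppm1d. On the same scale 8 genes without a call became lower, among them Ddx58, Nfkb1, Myc, Parp1, Pvr and Rps6ka1. A value of 1 read pair of about 4 counts limits precision: 3 read pairs in a group of 3 libraries are 12 counts.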

Other observations

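Transcript types other than protein-coding genes are set here beside all genes tested, of which 14.7% rose and 18.1% fell by both fits. Of 614 loci of the annotation class TEC, unproven transcripts, 9 rose and 118 fell by both fits, with a median log2 fold change of -2.04, a share of falls close to that of all genes. Of 72 sense intronic transcripts, which lie within introns of other genes, 0 rose and 21 fell by both fits. Of 1513 processed pseudogenes, which copy spliced mRNAs, 147 rose and 127 fell by both fits, though 487 were called higher and 132 lower without the correction. Reads of a pseudogene and its parent gene may be split between them. Among 637 antisense transcripts 26 rose and 65 fell by both fits.

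Globin genes, which red blood cell precursors express, stood apart by library and not by group. Hbb-bs was at 399, 405 and 374 CPM in the untreated control libraries and at 3.83, 701 and 608 CPM in treated control libraries 1, 4 and 5. Of all 12 libraries, treated control library 1 and sgRnf19a library 3 without IR held almost none, and in the other 10 Hbb-bs ran from 374 to 842 CPM. Hbb-bt, Hba-a1, Hba-a2 and Alas2, an enzyme of heme synthesis in red cells, had the same pattern. These 5 were the genes at least 4-fold lower in both libraries than in the rest of their groups, with a pseudocount of 0.5 CPM. They were looked at after their levels were seen, and the source of the globin RNA was not tested.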
